A study of Homo sapiens with 12 samples.

Results

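The genes described are 10 members of the cytosolic chaperone machinery that handles steroid receptors, listed by name: HSP90AA1, HSP90AB1, HSPA8, HSPA1A, HSPH1, DNAJA1, DNAJB1, STIP1, PTGES3 and FKBP4. They are 10 of the 57992 entries of the count table, and 9 of them are among the 15407 genes that had enough counts to be tested. The study compared prostate adenocarcinoma cell lines that are resistant or sensitive to enzalutamide, an antiandrogen drug, by RNA sequencing of polyA-selected RNA. The lines used are MR49F, labelled resistant, C4-2, labelled sensitive, and LNCaP, labelled sensitive, with 3 biological replicates each. MR49F and C4-2 are both derived from LNCaP, a line from a lymph node metastasis, and C4-2 is known for growth without androgen. Each line is a single derivative, so a difference between lines cannot be told apart from any other difference between those cultures, drug response included. Whether enzalutamide was in the medium at harvest is not given in the sources used here. A further labelled line, C4-2R, was not analysed here.

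A newly made steroid receptor depends on chaperones to reach the state that binds its ligand. J-domain proteins hand it to HSP70, the adaptor STIP1 (also called HOP) holds HSP70 and HSP90 together so that the receptor can pass between them, and the small protein PTGES3 (p23) then closes onto ATP-bound HSP90. An immunophilin with tetratricopeptide repeats completes the mature complex: FKBP4 (FKBP52) favours receptor activity, and FKBP5 (FKBP51) competes for the same place on HSP90. FKBP5 is also a well-known androgen-induced gene in prostate cells. Many of these genes respond to heat shock factor, whose binding element is a row of short GAA units in alternating orientation.

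The RefSeq promoter table (GRCh38.p14) held 9 of the 10 genes, in 15 windows around annotated starts. A pair of units, GAANNTTC or TTCNNGAA, was found in 8 of the 15 windows and in 7 genes. Such a pair was found in 13.5% of all 35116 promoter windows of the same length. A row of 3 units stood in 4 windows, 1 each of HSPA8, DNAJA1, HSP90AB1 and HSP90AA1, against 0.490% of all windows. Both strands were read, and a row of 3 units holds overlapping pairs. These 4 promoters are shown because they carry the longer element and because their genes differed in how they behaved across the lines. Capitals mark every unit pair or row, and each sequence reads 5′ to 3′ on the strand of its gene.
HSPA8, minus strand, chr11:123062087-123062386: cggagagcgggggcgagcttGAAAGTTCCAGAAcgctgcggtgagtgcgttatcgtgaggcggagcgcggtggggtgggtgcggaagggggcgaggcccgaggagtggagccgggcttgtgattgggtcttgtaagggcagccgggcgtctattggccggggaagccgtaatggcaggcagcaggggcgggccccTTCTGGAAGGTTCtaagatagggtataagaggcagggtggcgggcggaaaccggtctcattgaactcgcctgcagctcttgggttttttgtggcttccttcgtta
DNAJA1, plus strand, chr9:33025023-33025322: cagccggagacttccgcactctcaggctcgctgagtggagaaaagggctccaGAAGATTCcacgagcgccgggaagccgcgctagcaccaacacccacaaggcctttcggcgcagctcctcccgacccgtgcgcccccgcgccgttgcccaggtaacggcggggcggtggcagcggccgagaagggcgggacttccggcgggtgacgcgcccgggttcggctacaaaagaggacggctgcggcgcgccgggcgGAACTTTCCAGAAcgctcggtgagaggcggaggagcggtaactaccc
HSP90AB1, plus strand, chr6:44247693-44247992: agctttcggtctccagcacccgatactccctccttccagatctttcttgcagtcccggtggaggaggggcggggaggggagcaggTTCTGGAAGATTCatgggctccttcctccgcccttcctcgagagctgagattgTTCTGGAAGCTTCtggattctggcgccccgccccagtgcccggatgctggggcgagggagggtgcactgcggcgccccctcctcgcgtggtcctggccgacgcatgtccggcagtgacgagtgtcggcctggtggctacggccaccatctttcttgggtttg
HSP90AA1, minus strand, chr14:102086995-102087294: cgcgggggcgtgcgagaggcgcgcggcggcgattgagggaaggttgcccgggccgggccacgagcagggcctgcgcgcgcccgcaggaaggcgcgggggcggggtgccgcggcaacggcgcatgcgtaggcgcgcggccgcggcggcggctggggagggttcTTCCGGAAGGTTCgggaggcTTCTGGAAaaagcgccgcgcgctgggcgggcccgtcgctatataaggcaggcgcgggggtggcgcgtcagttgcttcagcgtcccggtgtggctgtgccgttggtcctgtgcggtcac
The capitals are a match of letters and do not show that the factor was bound there.

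The libraries held between 6990461 and 9375912 counts, except C4-2 replicate 1 with 42770072. All 9 luminal prostate markers looked at, among them KLK3 and HOXB13, averaged at least 1 CPM in each line, where CPM is the count scaled by library size to a common depth. Their summed level was 8937 to 9198 CPM in MR49F, 7119 to 8170 CPM in C4-2 and 5786 to 5949 CPM in LNCaP. The 5 immune markers together stayed at or below 0.572 CPM in every library, with CD3E and MS4A1 at 0. The 6 fibroblast markers summed to 7.61 to 9.26 CPM in MR49F, 21.8 to 27.0 CPM in C4-2 and 26.2 to 30.1 CPM in LNCaP, with COL1A2 at 0. The 4 endothelial markers summed to 0.594 to 0.807 CPM in MR49F, 2.72 to 3.36 CPM in C4-2 and 3.29 to 4.82 CPM in LNCaP, with CDH5 at 0. Counts on mitochondrial pseudogenes made up 3.66% to 4.91% of a library in MR49F, 4.38% to 7.45% in C4-2 and 2.92% to 3.09% in LNCaP, so these, like the luminal, fibroblast and endothelial sums, moved with the lines; the part of the markers in the results was not tested. With the pseudogene entries left out, every chaperone gene kept its direction and its side of the threshold. Of the fibroblast markers, COL1A1 held 1698 counts over the 9 libraries, COL3A1 394, PDGFRB 125, LUM 60 and DCN 5. Of the endothelial markers, VWF held 286, KDR 9 and PECAM1 5. In bulk RNA, fewer cells of a type and less RNA per cell cannot be told apart.

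Together the chaperone genes took a larger share of the RNA in MR49F than in the other lines. The 10 genes took 0.791% ± 0.0397 of all counts in MR49F, 0.665% ± 0.0395 in C4-2 and 0.691% ± 0.00132 in LNCaP (SD, n = 3 each). The gain came mainly through HSPA8, which averaged 3029 ± 125 CPM in MR49F, 1732 ± 133 CPM in C4-2 and 2112 ± 30.7 CPM in LNCaP, beside 10-gene sums of 8103 ± 428, 6760 ± 365 and 6672 ± 53.1 CPM in these lines. The summed HSP90 genes HSP90AA1 and HSP90AB1 averaged highest in C4-2, whose libraries overlapped those of MR49F, at 3006 ± 193 CPM in MR49F, 3279 ± 166 CPM in C4-2 and 2869 ± 2.64 CPM in LNCaP. In MR49F against LNCaP, 5 of the 9 tested genes rose (HSPA8, HSPH1, DNAJA1, STIP1 and PTGES3) and 0 fell at an adjusted p under 0.05 in edgeR's quasi-likelihood test. Over all tested genes, 24.1% were called higher and 22.8% lower. Shares over all genes are not matched for abundance, and small changes pass the test more easily at high counts. By mean CPM the tested members ranked between 9 (HSPA8) and 2470 (DNAJB1) of 15407 genes. The count of falling members was also 0 at an unadjusted p under 0.05, with DESeq2 and with limma voom. The median log2 fold change of the 9 genes was 0.27, beside 0.01 over all tested genes. With library totals as the only scaling, 3 of the 9 rose and 1 fell (DNAJB1), while over all genes the calls were 2855 higher and 4284 lower, against 3719 higher and 3516 lower with TMM scaling, which sets the bulk of genes to a mean difference near 0.

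In C4-2 against LNCaP, 2 of the 9 genes rose (HSP90AB1 and HSPH1) and 3 fell (HSPA8, STIP1 and DNAJB1), where 26.2% of all tested genes were called higher and 23.5% lower. The members' median log2 fold change was -0.06, and that over all genes was -0.00. Set directly against each other, MR49F against C4-2 gave 4 genes higher (HSPA8, DNAJA1, STIP1 and PTGES3) and 2 lower (HSP90AB1 and HSPH1), with 29.9% and 31.1% of all genes called. The members' median there was 0.15, beside -0.00 over all genes. Within MR49F, replicate 3 had the highest CPM of the line for 7 of the 9 tested genes and the lowest for STIP1 and FKBP4. The comparisons with LNCaP share its 3 libraries and are not independent of each other. The p-values measure the spread between cultures of 1 line each.

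**Figure D1:**
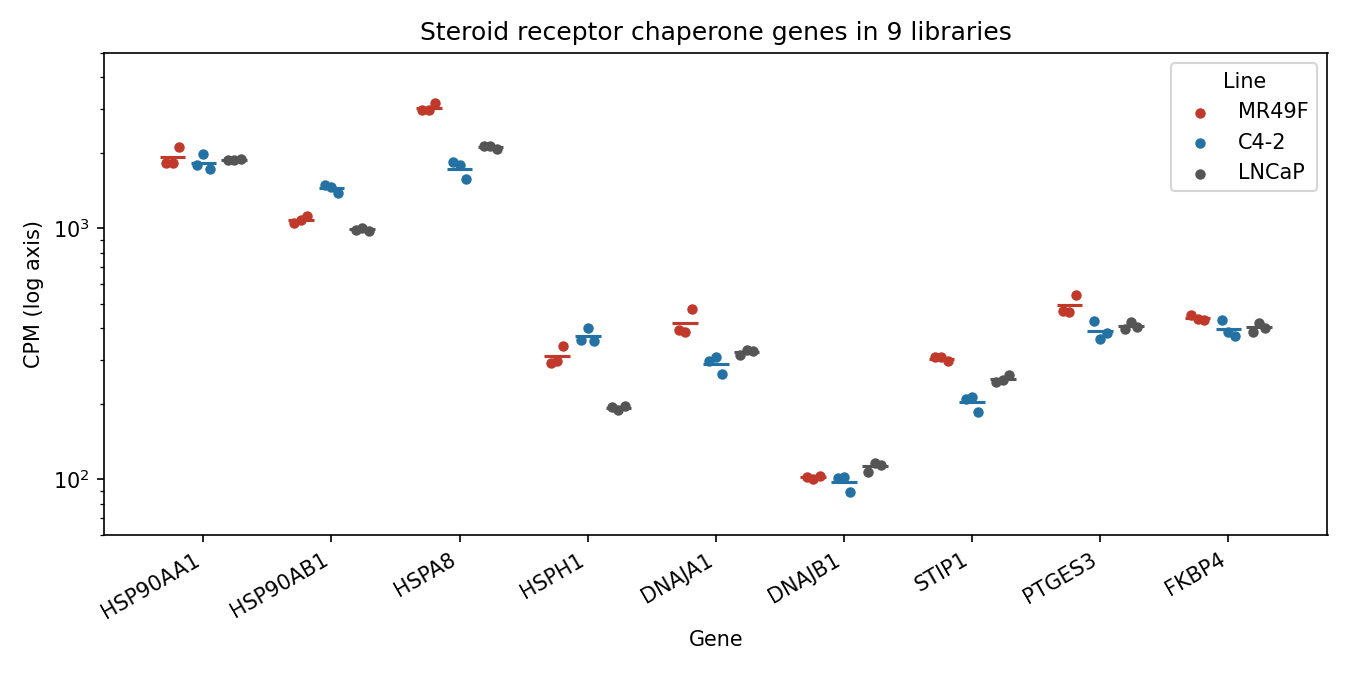
CPM (log axis) of the 9 tested chaperone genes in each of the 9 libraries, with a bar at the mean of each line (n = 3 each). For HSPA8, DNAJA1, STIP1, PTGES3 and, by a small margin, FKBP4 the MR49F points lie above those of both other lines. For HSP90AB1 the C4-2 points do, and for HSPH1 the LNCaP points lie lowest.

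HSP90AA1 and HSP90AB1 encode the stress-inducible and the constitutive cytosolic HSP90, the chaperone that holds the receptor's ligand-binding domain. HSP90AA1 (chr14:102080738-102139699, minus strand; GENCODE 29, GRCh38) had 1826, 1831 and 2106 CPM in MR49F, 1792, 1979 and 1721 CPM in C4-2, and 1882, 1866 and 1885 CPM in LNCaP. The ranges of the 3 lines overlapped. Its log2 fold change was 0.03 ± 0.0783 (SE) in MR49F against LNCaP (edgeR adjusted p = 0.758), -0.04 ± 0.0783 in C4-2 against LNCaP (0.728) and 0.07 ± 0.0783 in MR49F against C4-2 (0.458).

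HSP90AB1 (chr6:44246166-44253888, plus strand) had 1051, 1083 and 1121 CPM in MR49F, 1495, 1461 and 1388 CPM in C4-2, and 987, 1006 and 981 CPM in LNCaP. Every C4-2 library stood above every library of the other lines. The gene rose in C4-2 against LNCaP by 0.55 ± 0.0696 on the log2 scale (edgeR adjusted p = 1.58e-06). In MR49F against LNCaP its log2 fold change was 0.13 ± 0.0695 (edgeR adjusted p = 0.132), although the libraries did not overlap, and in MR49F against C4-2 it fell by 0.42 ± 0.0695 (2.84e-05). Without C4-2 replicate 1 the value in MR49F against LNCaP was again 0.13 and passed the test (adjusted p = 0.0475), where the 20 alternatives ran up to 0.638. Near-identical pseudogenes held 5.27% of the counts of HSP90AA1 and its 5 copies, and 5.71% of those of HSP90AB1 and its 6 copies. Reads of such copies cannot be assigned with certainty, and with the copies summed in no call on either gene changed.

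Within a library, the ratio of HSP90AA1 to HSP90AB1 counts does not depend on scaling. It averaged 1.77 ± 0.0980 in MR49F, 1.26 ± 0.0803 in C4-2 and 1.89 ± 0.0347 in LNCaP (SD, n = 3 each). HSP90AB1 made up 36.1% ± 1.26 of the counts of both genes in MR49F, 44.2% ± 1.55 in C4-2 and 34.6% ± 0.416 in LNCaP. The log2 ratio was 0.80, 0.76 and 0.91 in MR49F, 0.26, 0.44 and 0.31 in C4-2, and 0.93, 0.89 and 0.94 in LNCaP. The C4-2 libraries lay below all others. The difference in log2 ratio was -0.58 for C4-2 against LNCaP (exact two-sided permutation test, p = 0.1), 0.48 for MR49F against C4-2 (p = 0.1) and -0.10 for MR49F against LNCaP (p = 0.2). With 3 against 3 libraries this test cannot go below 0.1, and over the 6 ratio comparisons made the Benjamini-Hochberg values were 0.15, 0.15 and 0.2.

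**Figure D2:**
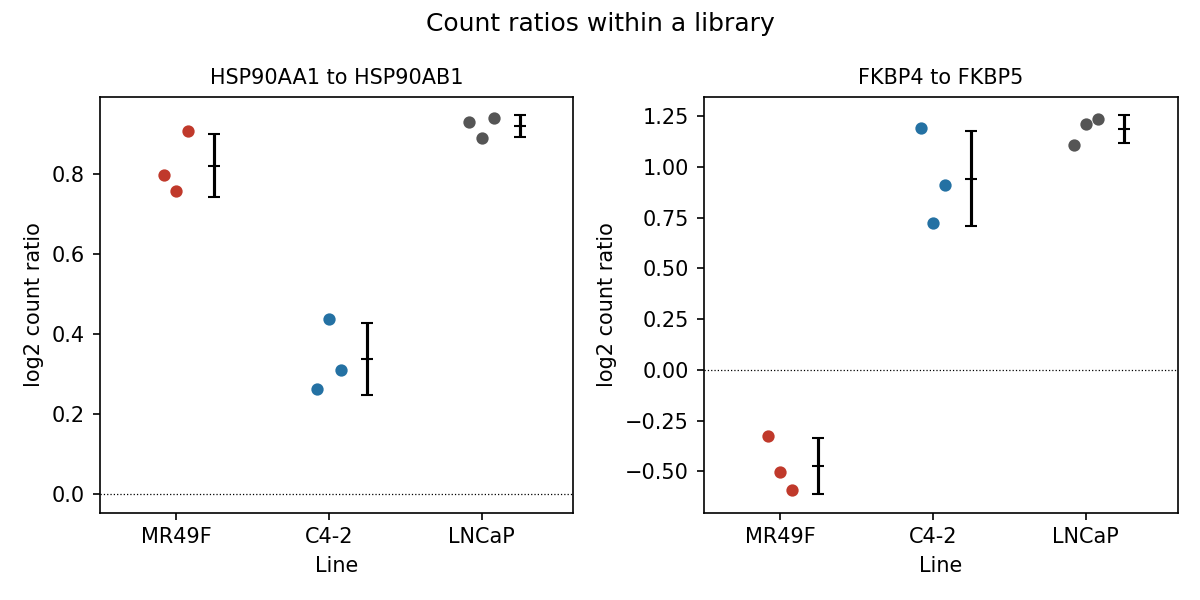
Log2 count ratios within each library, HSP90AA1 to HSP90AB1 on the left and FKBP4 to FKBP5 on the right, with mean and SD beside the 3 points of each line. C4-2 stands apart in the first ratio, at 0.34 ± 0.0906, and MR49F in the second, at -0.47 ± 0.137.

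HSPA8, the constitutive HSP70 (HSC70), moved in opposite directions in the LNCaP derivatives. HSPA8 (chr11:123057489-123063230, minus strand) had 2959, 2954 and 3173 CPM in MR49F, 1833, 1782 and 1581 CPM in C4-2, and 2123, 2135 and 2077 CPM in LNCaP. The 3 lines did not overlap, with MR49F highest and C4-2 lowest. It rose in MR49F against LNCaP by 0.52 ± 0.0750 (log2, SE; edgeR adjusted p = 8.37e-06) and fell by 0.29 ± 0.0749 in C4-2 against LNCaP (0.00343). The direct comparison of MR49F with C4-2 gave a log2 fold change of 0.81 ± 0.0753 (edgeR adjusted p = 1.12e-08).

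HSPH1 encodes HSP105, an HSP110-type protein that exchanges the nucleotide of HSP70. HSPH1 (chr13:31134974-31162388, minus strand) had 290, 298 and 340 CPM in MR49F, 359, 400 and 357 CPM in C4-2, and 194, 190 and 195 CPM in LNCaP. The LNCaP libraries were the lowest, and those of MR49F and C4-2 did not overlap. It rose by 0.68 ± 0.0803 in MR49F against LNCaP (log2, SE; edgeR adjusted p = 5.95e-07) and by 0.95 ± 0.0802 in C4-2 against LNCaP (4.59e-09), and MR49F against C4-2 gave -0.26 ± 0.0789 (0.00656). Without MR49F replicate 1 the last value was -0.22, with an adjusted p of 0.055, the highest of 20 alternatives whose lowest was 0.00055.

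HSPA1A (chr6:31815464-31817946, plus strand), the stress-inducible HSP70, had 5 counts in all 9 libraries together: 1 in MR49F, 2 in C4-2 and 2 in LNCaP. It was not tested and no fold is given. Its near-identical neighbour HSPA1B held 8389 counts, and how reads shared by the pair were assigned is not given in the sources used here, so the deposited counts cannot show how its transcripts divide. HSPA1B had 73.5, 77.4 and 78.4 CPM in MR49F, 90.1, 71.9 and 74.7 CPM in C4-2, and 59.3, 61.0 and 62.3 CPM in LNCaP. With both genes summed, an alternative added after the data were seen, the pair rose by 0.33 in MR49F against LNCaP (log2; edgeR adjusted p = 0.00641) and by 0.39 in C4-2 against LNCaP (0.0015). MR49F against C4-2 gave -0.06 (edgeR adjusted p = 0.591).

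DNAJA1 and DNAJB1 encode J-domain proteins that bring clients to HSP70 and start its ATPase. DNAJA1 (chr9:33025211-33039907, plus strand) had 393, 387 and 479 CPM in MR49F, 297, 307 and 264 CPM in C4-2, and 313, 328 and 324 CPM in LNCaP. Every MR49F library stood above all others, with replicate 3 the highest. DNAJA1 rose in MR49F against LNCaP by 0.38 ± 0.0866 (log2, SE; edgeR adjusted p = 0.00107), and MR49F against C4-2 gave 0.54 ± 0.0866 (1.97e-05). In C4-2 against LNCaP it was -0.15 ± 0.0867 (edgeR adjusted p = 0.153).

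DNAJB1 (chr19:14514770-14529770, minus strand) had 102, 100.2 and 103 CPM in MR49F, 102, 102 and 89.1 CPM in C4-2, and 107, 117 and 114 CPM in LNCaP. LNCaP stood above both derivatives in every library. Its log2 fold change was -0.15 ± 0.0806 in MR49F against LNCaP (edgeR adjusted p = 0.148) and -0.20 ± 0.0801 in C4-2 against LNCaP (0.04). The call in C4-2 was lost in 9 of 20 alternatives, among them without C4-2 replicate 3 (-0.15, adjusted p = 0.176) and without LNCaP replicate 2 (-0.19, adjusted p = 0.127), with adjusted p between 0.00694 and 0.176 over the 20. MR49F against C4-2 gave 0.06 ± 0.0803 (edgeR adjusted p = 0.544).

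STIP1, the adaptor between HSP70 and HSP90, followed HSPA8 in direction. STIP1 (chr11:64185272-64204543, plus strand) had 307, 307 and 296 CPM in MR49F, 210.0, 214 and 186 CPM in C4-2, and 245, 249 and 260.4 CPM in LNCaP. The lines did not overlap. It rose by 0.27 ± 0.0754 in MR49F against LNCaP (log2, SE; edgeR adjusted p = 0.00568) and fell by 0.30 ± 0.0757 in C4-2 against LNCaP (0.00228), and MR49F against C4-2 gave 0.57 ± 0.0755 (1.43e-06). With library totals as the only scaling the call in MR49F against LNCaP was lost (0.18, adjusted p = 0.056), and over 20 alternatives the adjusted p ran between 0.000263 and 0.056.

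PTGES3, the p23 protein of the mature receptor complex, was higher in MR49F. PTGES3 (chr12:56663341-56688408, minus strand) had 470.4, 464 and 545 CPM in MR49F, 427, 364 and 382 CPM in C4-2, and 399, 422.1 and 405 CPM in LNCaP. MR49F did not overlap the other lines, which overlapped each other. Its log2 fold change was 0.27 ± 0.0819 in MR49F against LNCaP (edgeR adjusted p = 0.0101), -0.06 ± 0.0819 in C4-2 against LNCaP (0.555) and 0.33 ± 0.0818 in MR49F against C4-2 (0.00148). The call in MR49F against LNCaP was lost with library totals only (adjusted p = 0.0667) and without MR49F replicate 3 (0.18, 0.0853), LNCaP replicate 1 (0.0652) or LNCaP replicate 3 (0.0539), and the lowest adjusted p of 20 alternatives was 0.000293. Pseudogene copies held 17.1% of the counts of PTGES3 and its 5 copies together, the largest share among the tested members.

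FKBP4, the immunophilin that favours receptor activity, passed the test in no comparison. FKBP4 (chr12:2794953-2805423, plus strand) had 454, 436 and 433 CPM in MR49F, 430, 386 and 371 CPM in C4-2, and 388, 421.6 and 401 CPM in LNCaP. MR49F lay above the other lines by a small margin. Its log2 fold change was 0.13 ± 0.0754 in MR49F against LNCaP (edgeR adjusted p = 0.178), -0.03 ± 0.0753 in C4-2 against LNCaP (0.797) and 0.15 ± 0.0752 in MR49F against C4-2 (0.0843). Without C4-2 replicate 1 the last value was 0.22 and passed the test (adjusted p = 0.00391), where the 20 alternatives ran up to 0.302.

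The competing immunophilin FKBP5 had 569, 617 and 653 CPM in MR49F, 188, 234 and 197 CPM in C4-2, and 180.1, 182 and 170.4 CPM in LNCaP. The log2 ratio of FKBP4 to FKBP5 counts was -0.33, -0.50 and -0.59 in MR49F, 1.19, 0.73 and 0.91 in C4-2, and 1.11, 1.21 and 1.24 in LNCaP. The 3 MR49F libraries lay below the 6 others. The genes differ in length, so the sign of this ratio does not say which transcript was more abundant. The mean log2 ratio differed by -1.66 between MR49F and LNCaP and by -1.42 between MR49F and C4-2 (exact two-sided permutation test, p = 0.1 each, the smallest possible; Benjamini-Hochberg 0.15). C4-2 against LNCaP gave -0.24 (exact permutation p = 0.2; Benjamini-Hochberg 0.2), with -0.37 when C4-2 replicate 1 was left out and -0.13 without C4-2 replicate 2. FKBP5 itself rose by 0.21 in C4-2 against LNCaP on the log2 scale (edgeR adjusted p = 0.0446).

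**Figure D3:**
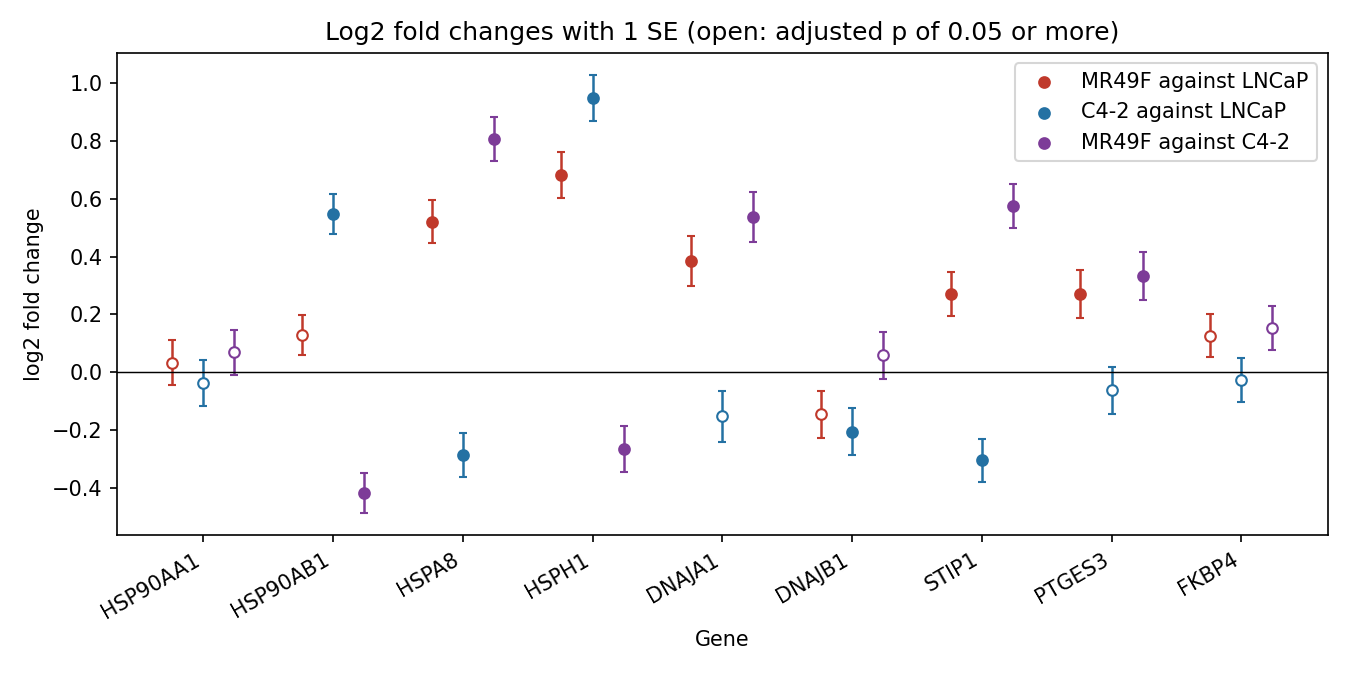
Log2 fold changes of the 9 tested chaperone genes with 1 SE in 3 comparisons of lines; filled points had an edgeR adjusted p under 0.05. HSPA8 and STIP1 lie above 0 in MR49F against LNCaP and below it in C4-2 against LNCaP, and HSPH1 lies above 0 in both.

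Levels can be set between genes only per length. In CPM per kilobase of all annotated exons, HSPA8 stood at 625 ± 25.8 in MR49F, 357 ± 27.5 in C4-2 and 436 ± 6.33 in LNCaP. HSP90AA1 stood at 366 ± 30.6 in MR49F, 349 ± 25.3 in C4-2 and 358 ± 1.98 in LNCaP. HSP90AB1 stood at 364 ± 11.8 in MR49F, 486 ± 18.5 in C4-2 and 333 ± 4.29 in LNCaP (SD, n = 3 each). HSPA8 was thus the most abundant member in MR49F and LNCaP and HSP90AB1 in C4-2, where HSPA8 and HSP90AA1 did not differ beyond their spread. In MR49F the same held for HSP90AA1 and HSP90AB1. The order depends on the length used: per kilobase of the principal transcript, HSPA8 led in C4-2 too, at 703 ± 54.1, ahead of HSP90AA1 at 542 ± 39.4 and HSP90AB1 at 542 ± 20.6. The other tested members ranged in CPM per kilobase of all exons between 27.8 (DNAJB1) and 154 (DNAJA1) in MR49F, 26.6 (DNAJB1) and 115 (PTGES3) in C4-2, and 23.0 (HSPH1) and 120.3 (PTGES3) in LNCaP.

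HSP90AB1, HSPH1 and the pair of HSPA1A and HSPA1B lie in stretches where neighbouring genes were also higher in C4-2 more often than the 26.2% of all tested genes. The windows were set after the data were seen, so the counts are a description. The share of all tested genes called lower in C4-2 against LNCaP was 23.5%. In MR49F against LNCaP the shares were 24.1% higher and 22.8% lower. Within 2 Mb on either side of HSP90AB1, 42 of 46 other tested genes were called higher and 0 lower in C4-2 against LNCaP, with a median log2 fold change of 0.91. Of those 46, 13 were higher and 6 lower in MR49F against LNCaP, with a median of 0.13. Within 5 Mb, 60 of 77 were higher in C4-2 against LNCaP, with a median of 0.86. The gene's own change of 0.55 was smaller than the median of its neighbours.

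Around HSPH1, all 13 other tested genes within 2 Mb were higher in C4-2 against LNCaP, with a median of 1.02, close to the gene's own 0.95. Of the 13, 5 were higher and 3 lower in MR49F against LNCaP, with a median of 0.06, while HSPH1 rose by 0.68. Within 5 Mb, 31 of 34 were higher in C4-2 against LNCaP, with a median of 1.24. In MR49F against LNCaP 18 of the 34 (52.9%) were higher and 3 lower, with a median of 0.43. The share of all tested genes called higher there was 24.1%. Around HSPA1A, 74 of 120 tested genes within 2 Mb, HSPA1B among them, were higher and 8 lower in C4-2 against LNCaP, with a median of 0.36. In MR49F against LNCaP the same 120 gave 21 higher and 27 lower, with a median of -0.04. FKBP5 (chr6:35573585-35728583) lies within 5 Mb of HSPA1A. In that window 97 of 193 tested genes were higher and 18 lower in C4-2 against LNCaP, with a median of 0.30. Around HSPA8, the gene that was highest in MR49F, 1 of 17 genes within 2 Mb was higher and 5 were lower in MR49F against LNCaP, with a median of -0.14. Around DNAJB1, 8 of 81 were higher (9.88%) and 37 lower (45.7%) in that comparison, with a median of -0.27. The share of all tested genes called lower there was 22.8%. The part of the neighbourhood in the values of the members and FKBP5 was not tested.

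**Figure D4:**
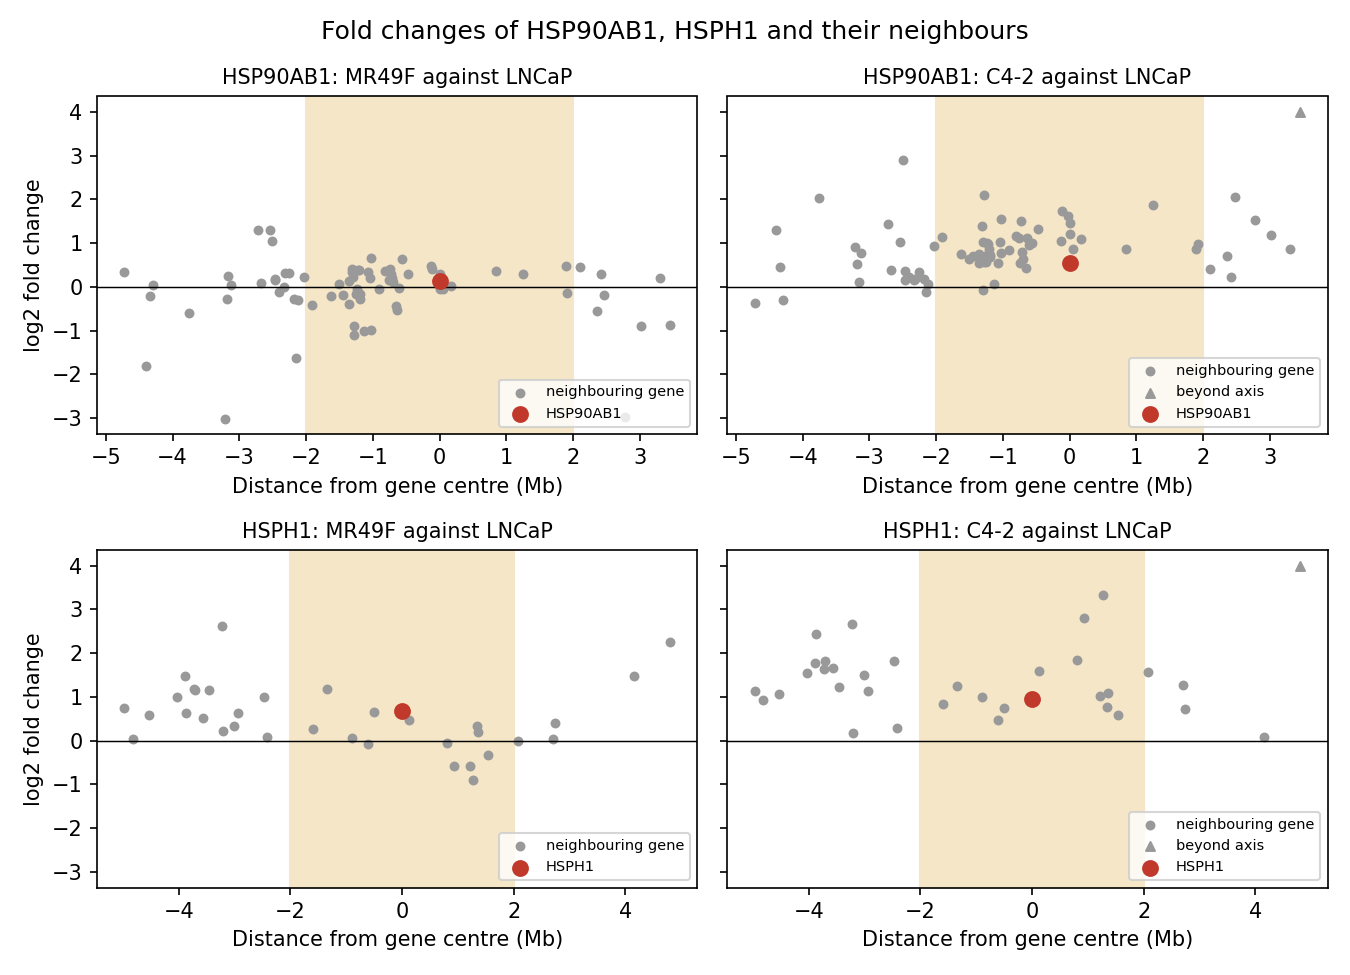
Log2 fold change of every tested gene within 5 Mb of HSP90AB1 (top) and HSPH1 (bottom) against its distance in Mb, for MR49F against LNCaP (left) and C4-2 against LNCaP (right); the shaded band is 2 Mb on either side, and triangles stand for values above the axis. Nearly all points in the shaded band lie above 0 in C4-2, with medians of 0.91 and 1.02. In MR49F the points of the band scatter around 0, with medians of 0.13 and 0.06. Over the whole 5 Mb windows the MR49F medians were 0.06 around HSP90AB1 and 0.43 around HSPH1.

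Of the other HSP90 paralogs and cochaperones, 23 were listed and 22 of them tested. In MR49F against LNCaP 5 rose and 1 fell, with a median log2 fold change of 0.14, so the share that rose was close to the 24.1% of all tested genes. The counts in each list below stand beside shares over all genes of 24.1% higher and 22.8% lower when MR49F was set against LNCaP. These shares were 26.2% and 23.5% for C4-2 against LNCaP, and 29.9% and 31.1% for MR49F against C4-2. The risers included FKBP5 (1.79 ± 0.0876, edgeR adjusted p = 6.55e-13), HSP90B1, the HSP90 of the endoplasmic reticulum (0.56 ± 0.0730, 2.45e-06), and AHSA1, which stimulates the HSP90 ATPase (0.27, 0.00793). CDC37, which loads kinases onto HSP90, fell by 0.25 (0.0228), and TRAP1, the mitochondrial HSP90, had 0.10 (0.32). In C4-2 against LNCaP 4 rose and 4 fell, with a median of -0.05, among them STUB1, a ubiquitin ligase that binds HSP70 and HSP90 (0.35, edgeR adjusted p = 0.00604). MR49F against C4-2 gave 8 higher and 3 lower, with PPID, another HSP90 immunophilin, at 0.60 (4.49e-05).

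The other HSP70 genes listed were tested in 10 of 13 cases. In MR49F against LNCaP 6 rose and 1 fell, with a median of 0.35, and in C4-2 against LNCaP 5 rose and 3 fell, with a median of 0.05. HSPA5, the HSP70 of the endoplasmic reticulum, rose in both, by 0.48 in MR49F (edgeR adjusted p = 2.76e-05) and by 0.45 in C4-2 (5.04e-05), with 0.03 between MR49F and C4-2 (0.784). HSPA4L, an HSP110-type gene like HSPH1, rose by 0.99 in MR49F (edgeR adjusted p = 4.72e-07) and by 0.58 in C4-2 (0.000312). HSPA9, the mitochondrial HSP70, had 0.11 in MR49F against LNCaP (0.235).

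Of the other J-domain genes, 18 were listed and 17 of them tested. They gave 6 higher and 2 lower with a median of 0.08 for MR49F against LNCaP, and 8 higher and 2 lower with a median of 0.19 for C4-2 against LNCaP. The endoplasmic reticulum J proteins DNAJB9, DNAJB11 and DNAJC3 had the lowest adjusted p in C4-2 against LNCaP, at 1.12, 0.82 and 0.86 (edgeR adjusted p = 1.63e-08, 3.53e-08 and 5.39e-08). Both DNAJC3 and DNAJB11 fell in MR49F against C4-2, by 0.93 and 0.70 (9.64e-09 and 2.05e-07). DNAJA3, the mitochondrial J protein, fell by 0.37 in MR49F and by 0.47 in C4-2 against LNCaP (0.000337 and 2.03e-05).

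The 10 listed genes of HSP70 exchange and the BAG family were all tested. Against LNCaP, 3 were higher and 2 lower in MR49F and 2 higher and 4 lower in C4-2, with medians of -0.02 and -0.07. BAG2, which inhibits the STUB1 ligase, had 0.563 ± 0.385 CPM in MR49F, 52.3 ± 2.53 CPM in C4-2 and 19.2 ± 1.15 CPM in LNCaP (SD, n = 3 each), on 15 counts in all 3 MR49F libraries. Against LNCaP its log2 fold change was -5.05 for MR49F and 1.45 for C4-2 (edgeR adjusted p = 2.48e-13 and 1.56e-09). BAG1, an HSP70 exchange factor known to bind steroid receptors, rose by 0.66 in MR49F against LNCaP (1.47e-06). ST13 (HIP), which stabilises ADP-bound HSP70, fell by 0.39 in C4-2 against LNCaP (0.000373).

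Of 11 listed heat shock factors, small heat shock proteins and related genes, 8 were tested, and most of these fell in MR49F against C4-2. That comparison gave 1 higher and 6 lower, with a median log2 fold change of -1.12. The 1 higher was a heat shock factor, HSF2 (0.38, edgeR adjusted p = 0.00164). Of the tested heat shock factors only HSF4 fell (-1.53, 1.7e-08). In C4-2 against LNCaP 6 of the 8 tested genes rose and 0 fell. The count of falling genes was also 0 at an unadjusted p under 0.05, with DESeq2 and with limma voom. Of the 6 risers, SERPINH1, CRYAB and HSPB8 averaged only 0.165, 0.266 and 0.973 CPM in LNCaP. MR49F against LNCaP gave 3 higher and 4 lower. The small heat shock protein HSPB1 averaged 42.7 ± 3.82 CPM in MR49F, 169 ± 39.7 CPM in C4-2 and 79.2 ± 8.64 CPM in LNCaP, with log2 fold changes of -0.89 in MR49F and 1.10 in C4-2 against LNCaP (edgeR adjusted p = 2.22e-05 and 6.85e-07). SERPINH1 (HSP47), the collagen chaperone, had 0 counts in MR49F, 659 in C4-2 and 4 in LNCaP, so MR49F was at least 102-fold lower than C4-2 against a floor of 3 counts over the line. The list's median in MR49F against LNCaP was -0.67 as fitted and -0.45 with SERPINH1 at that floor. HSF1, the main heat shock factor, rose by 0.36 in MR49F and by 0.34 in C4-2 against LNCaP (edgeR adjusted p = 0.0122 and 0.0142), with 0.02 between MR49F and C4-2 (0.904). The C4-2 and LNCaP libraries overlapped for HSF1, with 52.3 CPM in C4-2 replicate 2 and 54.1 CPM in LNCaP replicate 1.

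Chaperonin and prefoldin genes, whose products fold actin and tubulin or work in mitochondria, were higher in MR49F than in C4-2 in most cases. All 16 listed genes were tested. In MR49F against C4-2 14 were higher and 0 lower, with a median log2 fold change of 0.39. Over all genes, 29.9% were called higher and 31.1% lower there. Against LNCaP, 8 rose and 0 fell in MR49F, with a median of 0.18, and in C4-2 against LNCaP 1 rose and 9 fell, with a median of -0.22. The counts of 0 lower were also 0 at an unadjusted p under 0.05, with DESeq2 and with limma voom. TCP1, a subunit of the cytosolic chaperonin, averaged 399.9 ± 26.8 CPM in MR49F, 254 ± 9.15 CPM in C4-2 and 364 ± 2.09 CPM in LNCaP, with a log2 fold change of 0.65 in MR49F against C4-2 (edgeR adjusted p = 1.78e-07). VBP1, a prefoldin subunit, had 0.72 (1.03e-07), and HSPD1, the mitochondrial chaperonin HSP60, had 0.66 (4.76e-07). HSPE1, its partner HSP10, had 0.09 (0.348).

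**Figure D5:**
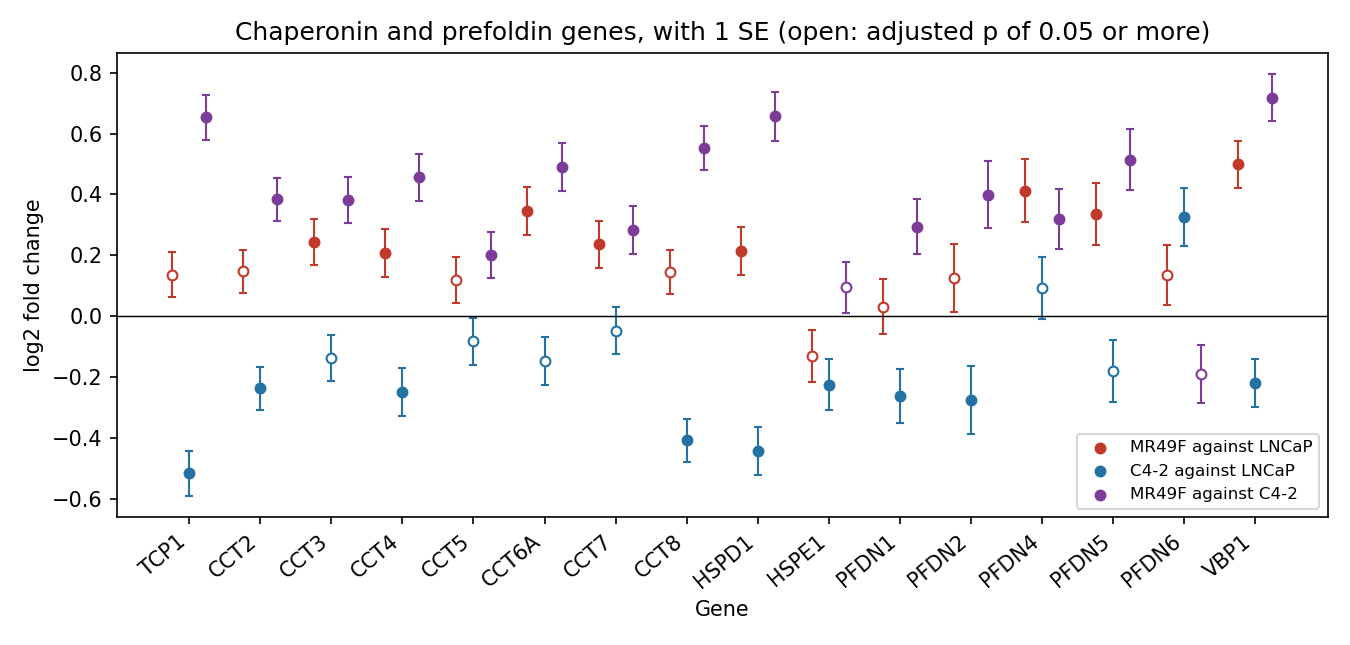
Log2 fold changes of the 16 listed chaperonin and prefoldin genes with 1 SE in 3 comparisons of lines. Filled points had an edgeR adjusted p under 0.05. The points for MR49F against C4-2 lie above 0 for 15 of 16 genes and those for C4-2 against LNCaP below 0 for 14 of 16.

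Among steroid receptor genes, NR3C2, the mineralocorticoid receptor, rose by 0.98 in MR49F and by 0.53 in C4-2 against LNCaP on the log2 scale (edgeR adjusted p = 7.23e-06 and 0.00354). NR3C1, the glucocorticoid receptor, had 3 counts in MR49F, 10 in C4-2 and 9 in LNCaP over 3 libraries each, and was not tested. Scaled by library size, it averaged 0.116 CPM in MR49F, 0.120 CPM in C4-2 and 0.371 CPM in LNCaP.

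The genes whose log2 CPM over the 9 libraries was most like that of a member were looked up for 3 members. For HSP90AA1 they were DYNC1I2, PDCD4 and PTENP1 (Pearson r = 0.975, 0.934 and 0.932). For HSP90AB1 they were SKA3, ARC and PAQR7 (0.994, 0.992 and 0.991), and for FKBP4 they were TACO1, COPS9 and RPL24P4 (0.981, 0.978 and 0.962). Among the members themselves the lowest correlation was that of HSPH1 with DNAJB1, at -0.77. The 9 libraries are 3 replicates of 3 lines, so the points share lines and sequencing depth, and the values are given as a description.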

How the data were processed

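RNA of 4 labelled prostate cancer lines was sequenced with a stranded TruSeq kit on a HiSeq2500, per the labels. The authors deposited a table of raw read counts per Ensembl gene, with no normalization. The tools listed, per the submitters' processing notes, were HTSeq 0.6.1, TopHat2, edgeR 3.12.1 and FastQC 0.11.3, with the build GRCh38.p12. Strand setting and annotation release were not given in the sources used here, so counts of overlapping, antisense or near-identical genes are uncertain. The table's 9 columns that match MR49F, C4-2 and LNCaP samples were used, and 3 further columns matched no sample label and were used in no step. The planned comparison of C4-2R with C4-2 was therefore not made. Of 57992 entries, 57388 were found in GENCODE 29.

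Counts were tested with edgeR 4.0.16 (R 4.3.3): quasi-likelihood fit, robust, TMM scaling, filterByExpr by line, 1 mean per line, 6 residual degrees of freedom and Benjamini-Hochberg adjustment over 15407 genes. The common biological coefficient of variation was 0.0817. Called means an adjusted p under 0.05. A standard error is the absolute log2 fold change over the square root of F. CPM used TMM-scaled library sizes. DESeq2 1.42.0 and limma 3.58.1 (voom), other scalings, filters and left-out libraries were alternatives.

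The members and lists were chosen with earlier results of these data known. Named are all members, FKBP5, HSPA1B and HSF1, and from each other list and comparison genes out of the 4 of smallest adjusted p plus the most abundant gene without a call. NR3C1 and HSF2, and values of a named gene in a further comparison, were given after they had been seen. Some genes that the rule takes are not reported here. The floor covers only counting error, as PCR copies were not told apart by molecular identifiers.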

Additional observations from a re-analysis of the deposited data

Results flagged for a closer look

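HSPA8 and STIP1 were singled out because both passed edgeR's test in opposite directions against LNCaP, higher in MR49F and lower in C4-2. The direct comparison of MR49F with C4-2 is the difference of those values, so its direction followed from the choice, and it gave a log2 fold change of 0.81 for HSPA8 (edgeR adjusted p = 1.12e-08) and 0.57 for STIP1 (1.43e-06). Over all tested genes, 29.9% were called higher in that comparison.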

How the results depend on the processing

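Of the values recomputed for the members under alternatives, 515 kept their direction and side of the threshold, 15 lost and 5 gained a call, and 5 changed sign. In MR49F against LNCaP, library totals as the only scaling left 3 members higher and 1 lower, and a fit of the 6 libraries compared left 1 lower (DNAJB1, -0.16, edgeR adjusted p = 0.0307), where the reported counts were 5 and 0. The cause was not tested. Leaving out 1 library gave 1 to 2 members lower in MR49F against C4-2. The 5 sign changes were in values that passed no test. HSP90AA1 in MR49F against LNCaP was -0.0534 with library totals only and ranged from -0.0478 to 0.0725 when 1 library was left out. It ranged likewise from -0.10 to 0.0074 in C4-2 against LNCaP and from -0.0025 to 0.12 in MR49F against C4-2, and FKBP4 in C4-2 against LNCaP from -0.0911 to 0.0184.

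No pairing of libraries by replicate number was seen: correlations of same-numbered libraries' deviations ran from -0.0832 to 0.0562, and 5 of 18 best matches were with the own number. With 3 libraries per line a weak pairing could go unseen. The fit with a replicate block called 3646 genes higher and 3469 lower for MR49F against LNCaP. For C4-2 against LNCaP it called 3907 higher and 3553 lower, and for MR49F against C4-2 4552 higher and 4709 lower. Among members it ended the call of DNAJB1 in C4-2 against LNCaP (-0.20, adjusted p = 0.0518). HSPA1A, with 5 counts beside 8389 on its near-identical neighbour HSPA1B, could not be judged from the deposited counts.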
